A study of Ovis aries with 6 samples.

Results

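Periostin, fibronectin, tenascin C, SPARC and fibulin 2 were followed on oligonucleotide arrays of sheep (Ovis aries) RNA through every probe that the array design names after one of them. These are 5 of the 904 genes that could be named on the array, and of its 15008 gene probes 7 met the rule: 2 for POSTN, 2 for FN1 and 1 each for TNC, SPARC and FBLN2. A further 2 probes whose descriptions call an integrin a fibronectin receptor were not counted. The study set corneal epithelia cells (3 samples) against skin epidermal stem cells (3 samples), and its design text calls each sample a cell line. All 6 samples were trypsinised from adherent cultures, and no genotype, agent or dose differed between them on the labels. Neither the animals behind the lines nor their age, sex or breed is given in the sources used here. Where nothing says that the lines came from separate animals, the errors and p-values below measure only the spread between these samples.

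These proteins are secreted into the extracellular matrix. Fibronectin is an adhesive glycoprotein that integrins, chiefly the α5β1 pair, assemble into fibrils. Periostin, tenascin C and SPARC are matricellular proteins, which change how cells grip and remodel the matrix more than they build its frame, and fibulin 2 links elastic fibres and basement membranes. In cornea and skin this group is best known from wound edges and from fibroblasts in repair, and fibronectin also lies in the provisional matrix over which epithelium migrates.

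The probes are shown here because each value below is the brightness of 1 of these 60-base oligonucleotides and not of a whole transcript. Each is printed 5′ to 3′ as the array files hold it, and capitals mark the longest run of bases that it shares, on the same strand, with any probe not named after the same gene.
POSTN A_70_P033761: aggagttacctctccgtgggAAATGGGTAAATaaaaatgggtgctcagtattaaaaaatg
POSTN A_70_P003211: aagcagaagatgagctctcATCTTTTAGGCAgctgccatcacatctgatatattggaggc
FN1 A_70_P038056: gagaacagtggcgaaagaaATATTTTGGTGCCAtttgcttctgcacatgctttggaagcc
FN1 A_70_P038496: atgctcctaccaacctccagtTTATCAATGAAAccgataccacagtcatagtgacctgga
TNC A_70_P018186: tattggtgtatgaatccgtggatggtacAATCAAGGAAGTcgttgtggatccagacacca
SPARC A_70_P059706: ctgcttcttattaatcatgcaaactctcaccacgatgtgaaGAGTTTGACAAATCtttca
FBLN2 A_70_P029716: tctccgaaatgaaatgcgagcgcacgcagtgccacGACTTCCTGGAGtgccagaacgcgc
The longest shared run was 12 to 14 bases for every one of the 7. The FBLN2 probe was the richest in G and C (36 of 60 bases), and the SPARC probe had the fewest (22 of 60). Both POSTN probes were drawn from 1 transcript cluster, TC53456, at its positions 756 and 2678, and their sequences do not overlap. The FN1 probes came from different records, the clone sequence CU653519 and the cluster TC62989. The file names the first of these, and the SPARC probe, only by gene symbol, so their matches to fibronectin and SPARC rest on the array design. The files give no genome build, and no genome coordinates are reported.

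Every array gave usable signal, with 72.9% to 75.9% of the 15208 gene spots well above background on corneal arrays and 77.5% to 81.6% on epidermal arrays, and no saturated gene spot. All 6 arrays shared 1 slide and 1 scan. The corneal arrays lay in its second row and the epidermal arrays in its first row, so the row and the kind of cell cannot be told apart. Values are log2 processed signal minus the array's own 75th percentile, so that 0 is the level of the 75th percentile. They are relative to a probe's own hybridisation and do not rank one gene's abundance against another's.

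The cell labels were checked against marker genes. Of 15 keratinocyte and corneal epithelium markers, 7 had a probe. On corneal arrays only PAX6, the eye-field transcription factor, was well above background on all 3. On epidermal arrays PAX6, KRT15 and DSP were. KRT5 and KRT14, the paired keratins of basal keratinocytes, were well above background on 0 corneal and 2 epidermal arrays, and KRT19 and TP63 on none. The KRT14 values overlapped, at −6.35, −6.33 and −7.25 in corneal cells and −6.76, −6.37 and −6.69 in epidermal cells. Those of KRT5 did not overlap and were higher in epidermal cells, at −6.66, −8.08 and −8.12 in corneal cells and −5.89, −6.44 and −6.13 in epidermal cells. KRT15 and DSP changed by −0.14 and −0.36 (limma, adjusted p = 0.416 and 0.15). The lowest normalized value well above background was −6.57 to −6.12 on corneal arrays and −7.14 to −6.65 on epidermal arrays. The summed signal of the 7 genes was 211 to 237 scanner units on corneal arrays and 212 to 238 on epidermal arrays. PAX6 alone made up most of these sums, at 161 to 193 units on corneal arrays and 150 to 172 on epidermal arrays. Its normalized values did not overlap, at −2.48, −2.23 and −2.36 in corneal cells and −2.68, −2.61 and −2.70 in epidermal cells. PAX6 was thus higher in corneal cells, by a change of 0.31 (limma, adjusted p = 0.0129). All 7 measured fibroblast and stroma markers were well above background on all 6 arrays, and their summed signal was 836205 to 848379 units on corneal arrays and 1064040 to 1152337 on epidermal arrays. Among them VIM, COL1A2 and DCN differed little between corneal and epidermal cells (changes of −0.05, −0.08 and 0.07; limma, adjusted p = 0.558, 0.118 and 0.794), although the 2 DCN probes moved in opposite directions. COL1A1, COL3A1, LUM and PDGFRA were lower in corneal cells, by changes of −0.54, −4.51, −0.39 and −0.51 (limma, adjusted p = 0.000616, 1.66e-07, 0.000408 and 8.89e-05). Of the defining epithelial markers, KRT19 and TP63 were thus at background in both groups and KRT5 and KRT14 in corneal cells. The epidermal KRT5 values were higher than the corneal ones but, like the epidermal KRT14 values, lay near background. The groups are called corneal and epidermal here only as labelled. Summed signals of the 5 measured immune markers were 13129 to 13545 units on corneal arrays and 22055 to 25925 on epidermal arrays, with 2 and 3 of them well above background on all arrays of the group and ITGAM on none. CD14 alone made up nearly all of these sums, at 12669 to 13061 units on corneal arrays and 21472 to 25321 on epidermal arrays. For the 2 smooth muscle and pericyte markers, both well above background on all arrays, the sums were 10384 to 11072 and 5263 to 6361. For the 9 vascular endothelium markers, of which 3 and 5 were well above background throughout and PECAM1, CDH5 and TEK nowhere, they were 448 to 470 and 468 to 515. The 3 corneal endothelium markers, well above background on all arrays, summed to 6238 to 6390 and 5840 to 7054, and the 2 melanocyte markers, 0 of which were well above background throughout a group, to 7.37 to 36.2 and 5.93 to 7.38. The part that such cells play in the results below was not tested, and in bulk RNA fewer cells of a type and less RNA per cell cannot be told apart.

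The 5 genes were chosen by their names after the normalized corneal and epidermal signals of these same arrays had been seen, so their difference is described without a test. For 5 of the 7 probes (POSTN, TNC, SPARC and FBLN2) the corneal mean was the lower one, and for both FN1 probes it was the higher one. The changes, corneal minus epidermal, ran from −6.71 to 0.95 on the log2 scale, with a median of −2.02. That median is the change of the dimmer POSTN probe, which did not pass the filter on dim probes (3 or more of the 6 arrays with a signal well above background). Over the 6 probes that did pass, the median was −1.28. Among these, POSTN A_70_P033761 passed only through the 3 epidermal arrays, where it is high. Over the 5 probes well above background on all 6 arrays the median was −0.28. Over all 11413 genes tested the median change was −0.04. The corneal and epidermal values did not overlap for any of the 7 probes, where 60.8% of all gene probes also had groups that did not overlap (31.7% with the corneal values lower and 29% with them higher).

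**Figure D1:**
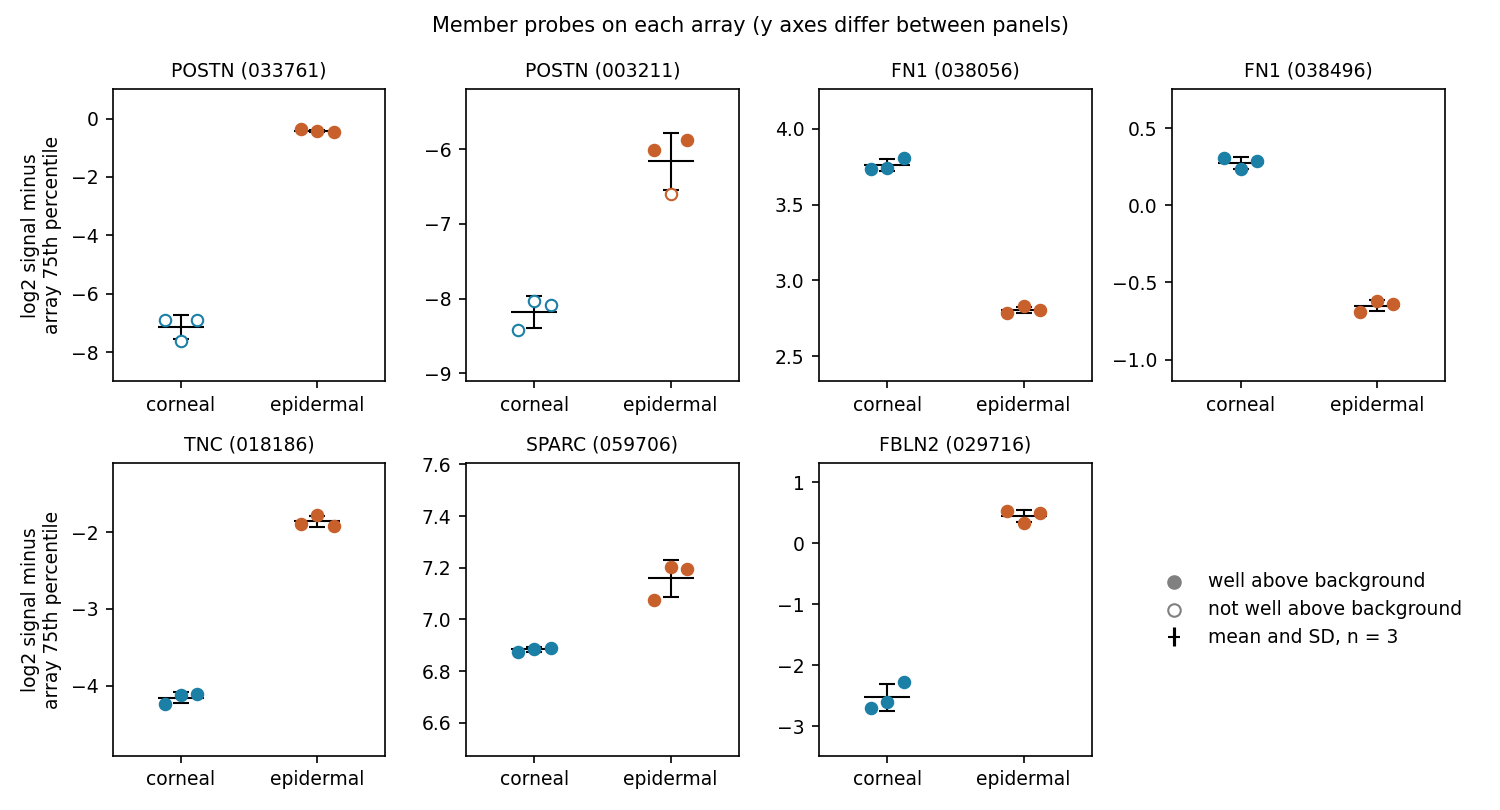
Normalized log2 signal (y axis, log2 signal minus the array's 75th percentile) of the 7 member probes on each array, corneal arrays to the left of epidermal arrays; points are arrays, filled where the probe was well above background, and bars give the mean and SD (n = 3). Both FN1 probes are higher on the 3 corneal arrays, and the other 5 probes are lower there, with the SPARC difference (−0.28) much smaller than that of POSTN A_70_P033761 (−6.71).

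Periostin had the widest difference. POSTN is secreted by fibroblast-like cells and osteoblasts, binds type I collagen and fibronectin, and signals through αv integrins. Its probe at position 2678 of the cluster, A_70_P033761, gave processed signals of 7.63, 4.63 and 7.46 units on the corneal arrays and 854, 717 and 709.9 units on the epidermal arrays. On the normalized log2 scale these were −6.89, −7.61 and −6.89 for corneal cells, against −0.37, −0.42 and −0.46 for epidermal cells. The 3 epidermal values lay within 0.1 of each other, whereas the corneal values were not well above background on any array and spread over a wider range. The means were −7.13 ± 0.42 in corneal cells and −0.42 ± 0.04 in epidermal cells (SD, n = 3 each), a change of −6.71 ± 0.21 (SE). Since the corneal signal is only a bound, POSTN was at least 59.7-fold lower in corneal cells under the main background treatment. That bound sets the epidermal mean against, on each corneal array, the higher of the probe's own value and the lowest value of any probe well above background there. The size depends on how background is treated. With normexp background correction, which adds an offset of 50, the change was −3.62, and −3.60 once 7 spots of extreme local background were left out.

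The corneal POSTN signals were set against the 77 spots that the array design marks as negative controls. Of these, 1, 2 and 2 spots on the 3 corneal arrays were as bright as A_70_P033761 or brighter, and 0 spots were on any epidermal array. The probe thus sat in the upper tail of the negative controls in corneal cells, above their medians of 2.30, 3.03 and 2.93 units. The second probe, A_70_P003211, gave 2.63, 3.47 and 3.27 units on corneal arrays and 17.2, 9.88 and 16.6 units on epidermal arrays. It was not well above background on any corneal array and was so on 2 of the 3 epidermal arrays. Its normalized values were −8.42, −8.03 and −8.08 in corneal cells, against −6.01, −6.60 and −5.88 in epidermal cells, again without overlap. Of the negative control spots, 5, 4 and 7 on the corneal arrays and 1, 1 and 0 on the epidermal arrays were as bright as this probe or brighter. The change was −2.02 ± 0.23 (SE), but with the corneal values as a bound the probe was at least 1.11-fold lower. It adds little on the size, and its direction rests on signals at or near background in both groups. The scanner's own error estimate for a single spot reached 54.0% of the signal for the first POSTN probe and 98.3% for the second, both on corneal arrays. For the other 5 probes it was 10% to 11.9%. The software's multiplicative error term was 0.1 on every array, so the 10% is the level of that term and not a spread measured between arrays.

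**Figure D2:**
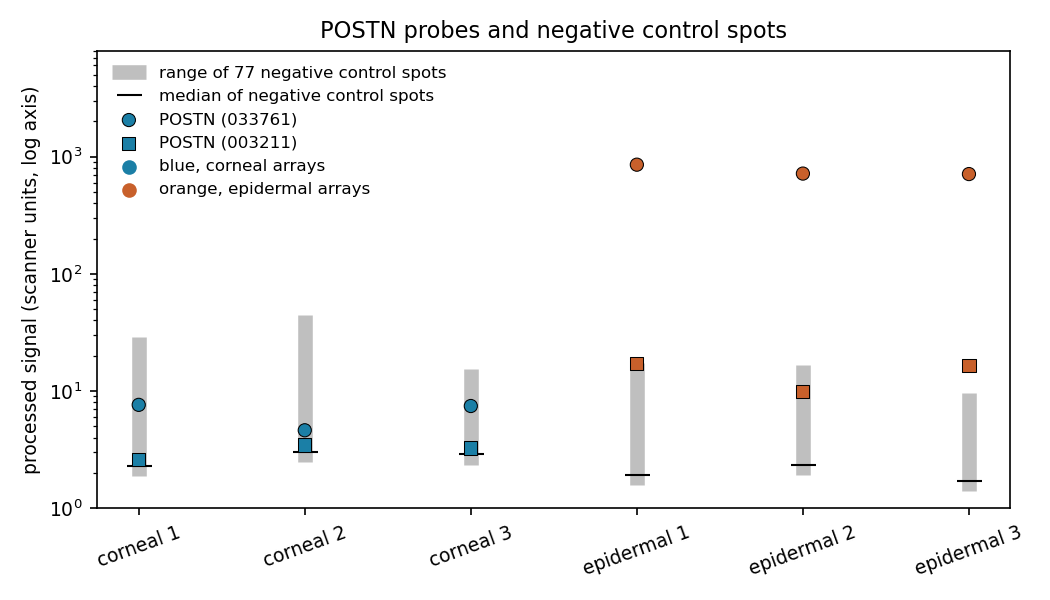
Processed signal (y axis, scanner units on a log axis) of both POSTN probes on each array, with the range and median of the 77 negative control spots. On the 3 corneal arrays both probes lie within the negative control range, while A_70_P033761 stands at 709.9 to 854 units on the epidermal arrays. A_70_P003211 also lies within that range on epidermal arrays 1 and 2.

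Tenascin C is a large hexameric glycoprotein that weakens cell attachment to fibronectin and appears at healing edges. The TNC probe had normalized values of −4.24, −4.12 and −4.10 in corneal cells, against −1.90, −1.77 and −1.92 in epidermal cells. It was well above background on all 6 arrays, and the gap between the groups (2.19) was many times the spread within either. The means were −4.16 ± 0.07 in corneal cells and −1.86 ± 0.08 in epidermal cells (SD, n = 3 each), a change of −2.29 ± 0.06 (SE) or a 4.9-fold lower signal. The corneal signals of 47.7, 51.9 and 51.6 units, against 297, 280.5 and 258 units in epidermal cells, are dim, and the size of this difference depends on how background is treated. With normexp background correction, which adds an offset of 50, the change was −1.75, and −1.38 once 7 spots of extreme local background on epidermal array 1 were left out.

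SPARC, or osteonectin, is a calcium- and collagen-binding protein made in quantity by cultured mesenchymal cells. Its probe gave 105828, 107102 and 105341 units on corneal arrays and 149377, 141540.1 and 142900.4 units on epidermal arrays, below saturation on all 6. The normalized values were 6.87, 6.89 and 6.89 in corneal cells, against 7.08, 7.20 and 7.20 in epidermal cells. The groups did not overlap, but epidermal array 1 lay nearer to the corneal arrays than the other epidermal arrays did, at a gap of 0.19. The means were 6.88 ± 0.01 in corneal cells and 7.16 ± 0.07 in epidermal cells (SD, n = 3 each), and the change of −0.28 ± 0.05 (SE) is a 1.21-fold lower signal. A change this low or lower was found at 25.6% of the probes that passed the filter, so SPARC differed far less than POSTN, TNC or FBLN2. With normexp on all spots the SPARC change was −0.05 while the median of all genes was −0.29, which puts SPARC above that median in this setting alone.

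Fibronectin differed the other way. The FN1 probe A_70_P038056 gave 12014, 12094 and 12433 units on corneal arrays and 7638, 6824 and 6792 units on epidermal arrays. Normalized, these were 3.73, 3.74 and 3.81 in corneal cells, against 2.79, 2.83 and 2.80 in epidermal cells. Every corneal value was higher, and replicates agreed to within 0.1. The means were 3.76 ± 0.04 in corneal cells and 2.81 ± 0.02 in epidermal cells (SD, n = 3 each), a change of 0.95 ± 0.04 (SE) or 1.94-fold. The second probe, A_70_P038496, which comes from another transcript record, had normalized values of 0.31, 0.23 and 0.29 in corneal cells and −0.69, −0.62 and −0.64 in epidermal cells. Its change was 0.93 ± 0.04 (SE), or 1.90-fold, so both FN1 probes gave nearly the same ratio although their signals differ. Among the probes that passed the filter, 3.92% had a change as high as the first FN1 probe or higher.

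Fibulin 2, which binds fibronectin, elastic fibres and basement membrane proteins, was again lower in corneal cells. The FBLN2 probe had normalized values of −2.70, −2.61 and −2.27 in corneal cells, against 0.53, 0.34 and 0.49 in epidermal cells. It was well above background on all 6 arrays, and the corneal arrays spread more than the epidermal ones. The means were −2.53 ± 0.22 in corneal cells and 0.46 ± 0.10 in epidermal cells (SD, n = 3 each), a change of −2.98 ± 0.13 (SE) or a 7.9-fold lower signal. Only 0.86% of the probes that passed the filter had a change as low or lower.

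Fibronectin was also set against the other members inside each array, where scaling between arrays cancels. The difference between FN1 A_70_P038056 and the FBLN2 probe was 6.43, 6.35 and 6.08 on corneal arrays and 2.26, 2.49 and 2.31 on epidermal arrays, which is 3.94 wider in corneal cells. For TNC the difference was 3.25 wider in corneal cells and for SPARC 1.23 wider. No such amount is given for POSTN, whose corneal values were not well above background. FN1 thus differed in its change from TNC, SPARC and FBLN2 on the same arrays, by amounts that no constant added to an array can alter. The size of such a difference within 1 array mixes 2 probes' hybridisation and has no meaning of its own. Each probe's own direction was also the same in all of its alternative settings, although some of those settings cannot move a member's change.

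**Figure D3:**
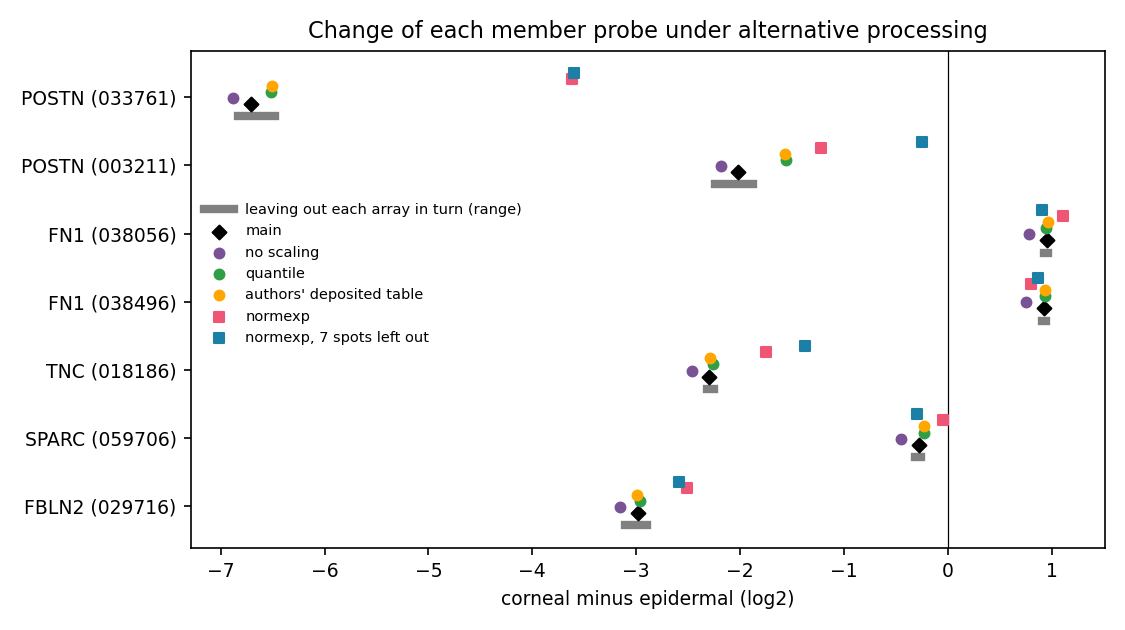
Change of each member probe (x axis, corneal minus epidermal, log2) under the main setting and 5 others, with the range over leaving out each array in turn as a grey bar. No point crosses 0; both normexp settings pull POSTN A_70_P033761 to −3.62 and −3.60 from −6.71, and the dimmer POSTN probe to −1.22 and −0.25.

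**Figure D4:**
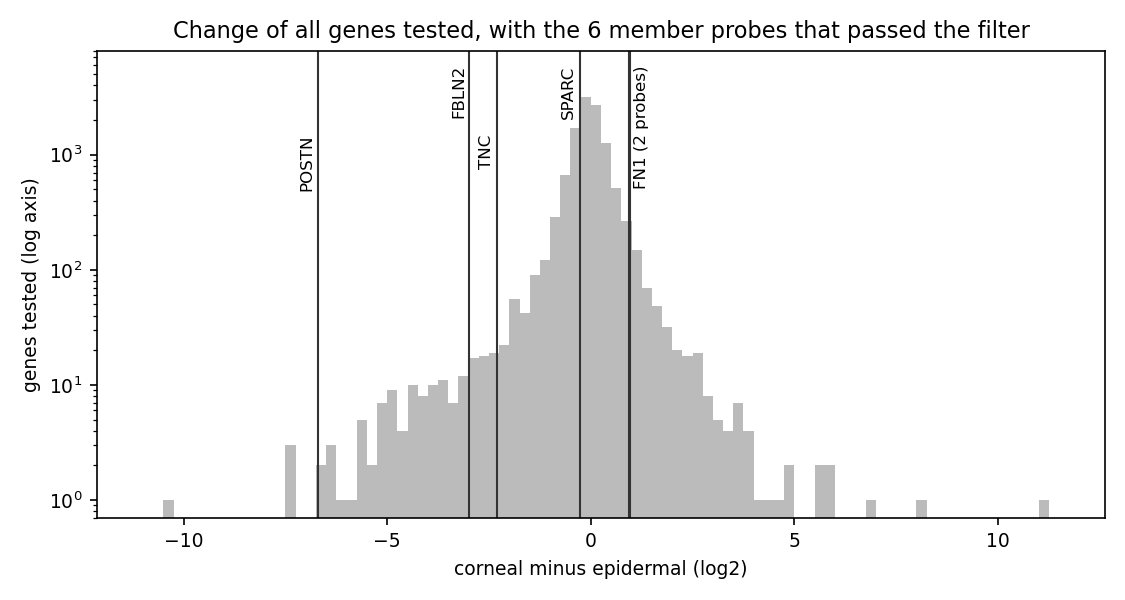
Number of genes tested (y axis, log axis) by their change (x axis, corneal minus epidermal, log2, in steps of 0.25), with vertical lines at the 6 member probes that passed the filter. POSTN at −6.71, a fitted value whose corneal side is at background, lies in the far left tail, FBLN2 and TNC in the left shoulder, SPARC near the centre, and the 2 FN1 probes, whose lines coincide, on the right slope.

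The genes with the most similar pattern across the 6 arrays were found among 681 other named genes that passed the filter, by the root mean square distance of values centred on each gene's own mean. Since the pattern is mostly the difference between the groups, the neighbours are chiefly genes with a change of like size. For FN1 they were THBS2, a thrombospondin (distance 0.04), IGFBP4, which binds insulin-like growth factors (0.05), and the Wnt receptor FZD2 (0.06). For FBLN2 they were OXT, the oxytocin gene (0.15), EFEMP1, a member of the fibulin family (0.16), and LRRC15, a leucine-rich repeat membrane protein (0.17). For TNC they were KITLG, the ligand of KIT (0.12), IGF2 (0.14) and the chemokine receptor CXCR4 (0.14). SPARC was nearest to PPP1R9B, a phosphatase regulator of the actin cytoskeleton (0.02), UBB, a ubiquitin gene (0.02), and HIF1A, a hypoxia-responsive factor (0.03). For POSTN the same measure named TNF, XDH, xanthine dehydrogenase, and ALDH1A1, a retinaldehyde dehydrogenase. Since the corneal values of POSTN, and those of TNF, were not well above background on any array, these distances rest on unmeasured levels and are not given. TNF, an inflammatory cytokine, was −7.68, −8.29 and −8.34 in corneal cells, against −1.59, −1.69 and −1.63 in epidermal cells. With the corneal values as a bound, TNF was at least 25.7-fold lower in the corneal ones under the main background treatment. Its fitted change of −6.47 (limma, adjusted p = 3.70e-06) rests on corneal values at background, so that p-value does not test the bound. The TNF change was −2.70 with normexp on all spots, and −2.42 once the spots of extreme local background were left out.

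Other genes of the same pathway were taken from 6 lists, and 83 of their genes had a probe. Of the 75 that passed the filter, 28 rose and 28 fell in corneal cells, with adjusted p-values under 0.05 (limma with Benjamini-Hochberg adjustment over all genes tested). That is 74.7% called, beside 59.3% of all 11413 genes tested (26.7% higher and 32.6% lower). Of all genes called, 45.0% were higher, a share that was 22.3% without scaling between arrays, which moved the median of all genes by −0.17. With normexp on all spots 16 of the 75 were called, and with the 7 spots of extreme background left out 63 were.

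Among the other matricellular proteins, 8 of 30 genes were measured and all passed the filter. Of these 4 rose, 2 fell and 2 were not called, and the median change was 0.35. CCN2, connective tissue growth factor, had 4.81, 4.78 and 4.77 in corneal cells, against 2.77, 2.80 and 2.71 in epidermal cells, and rose by 2.02 ± 0.04 (SE; limma, adjusted p = 7.53e-07). THBS2, which inhibits angiogenesis, rose by 0.99 ± 0.03 (adjusted p = 6.24e-06). The fibulins behaved like FBLN2 in sign. EFEMP1 had −2.75, −2.82 and −2.68 in corneal cells, against 0.43, 0.45 and 0.42 in epidermal cells, and changed by −3.18 ± 0.04 (adjusted p = 3.04e-07). FBLN1 changed by −1.46 ± 0.17 (adjusted p = 0.000899), and its second probe by −1.35.

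Of 26 receptors of these proteins 11 were measured and 9 passed the filter: 2 rose, 3 fell and 4 were not called (median change 0.14). SDC1, a heparan sulfate coreceptor, rose by 0.80 ± 0.08 (adjusted p = 0.000546). ITGB1, the β subunit of the fibronectin receptor, had a change of 0.15 ± 0.03 (adjusted p = 0.00624) that turned to −0.023 without scaling. ITGB5, which pairs with αv, fell by 0.97 on the log2 scale (SE 0.03; adjusted p = 3.94e-06). ITGA5, the α subunit of the fibronectin receptor, changed by −0.31 ± 0.06 (adjusted p = 0.00571), but its second probe changed by 0.04 and the mean of both was not called (adjusted p = 0.19).

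Of the adhesion complex and its signalling, 6 of 25 genes were measured and all passed the filter, with 4 higher, 1 lower and 1 not called (median change 0.33). ACTN4, an actin crosslinker of focal adhesions, rose by 1.08 ± 0.03 (adjusted p = 5.36e-06), and ILK, integrin-linked kinase, by 0.50 ± 0.05 (adjusted p = 0.000633). CAV1, the caveolin that takes part in fibronectin and integrin turnover, had −2.83, −2.85 and −2.94 in corneal cells, against −1.49, −1.38 and −1.35 in epidermal cells. Its change was −1.47 ± 0.05 (adjusted p = 7.63e-06), and its 3 probes ranged from −2.12 to −1.42.

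Of 34 matrix partners and crosslinkers 17 were measured and 16 passed the filter: 6 rose, 6 fell and 4 were not called (median change 0.05). COL3A1, the fibrillar collagen of healing tissue, had 2.34, 2.29 and 2.30 in corneal cells, against 6.74, 6.87 and 6.85 in epidermal cells, a change of −4.51 ± 0.05 (adjusted p = 1.66e-07). COL6A3, a chain of microfibrillar type VI collagen, changed by −1.48 ± 0.07 (adjusted p = 3.00e-05). BGN, the proteoglycan biglycan, rose by 1.32 ± 0.06 (adjusted p = 1.59e-05) on both of its probes. HSPG2, the basement membrane proteoglycan perlecan, rose by 0.79 ± 0.14 (adjusted p = 0.00502), though its change was −0.26 with normexp on all spots. With the 7 spots of extreme background left out, the HSPG2 change was 0.52 (limma, adjusted p = 0.00196).

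Of the proteases that cut these proteins and their inhibitors, 17 of 30 were measured and 15 passed the filter, with 6 higher, 7 lower and 2 not called (median change −0.05). The collagenases MMP1 and MMP13 rose in corneal cells, but neither was called with normexp on all spots. With the 7 spots of extreme background left out of normexp, both were called, at 1.48 and 0.55 (limma, adjusted p = 8.87e-08 and 0.000221). MMP1 had −0.91, −0.96 and −0.90 in corneal cells, against −2.75, −2.76 and −2.83 in epidermal cells, and rose by 1.86 ± 0.04 (adjusted p = 1.11e-06), with a change of 0.93 (adjusted p = 0.491) under normexp on all spots. MMP13 rose by 2.01 ± 0.22 (adjusted p = 0.000633), was well above background on 2 of 3 epidermal arrays, and had a change of −0.47 (adjusted p = 0.72) with normexp on all spots. ADAMTS1, a protease of versican, changed by −3.21 ± 0.03 (adjusted p = 1.67e-07), with 1.20, 1.17 and 1.11 in corneal cells and 4.36, 4.39 and 4.35 in epidermal cells. CTSS, the elastin-degrading cathepsin S, changed by −1.76 ± 0.08 (adjusted p = 2.54e-05), and its second probe by −0.28.

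Of the inducers of their transcription, 24 of 37 genes were measured and 21 passed the filter: 6 rose, 9 fell and 6 were not called (median change −0.05). Besides TNF, the immediate early factors EGR1 and FOS were lower in corneal cells. EGR1 had 0.81, 0.95 and 0.90 in corneal cells, against 2.71, 2.96 and 2.84 in epidermal cells, and changed by −1.95 ± 0.07 (adjusted p = 1.07e-05), with its 6 probes between −1.95 and −0.21. FOS changed by −0.98 ± 0.04 (adjusted p = 1.65e-05), with its 4 probes between −0.98 and −0.35. BMP4, a morphogen of the TGF-β family, rose by 1.55 ± 0.03 (adjusted p = 1.11e-06). TGFBR1, the signalling receptor for TGF-β, rose by 0.92 ± 0.11 (adjusted p = 0.00108), though its change was −0.0084 with normexp on all spots.

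**Figure D5:**
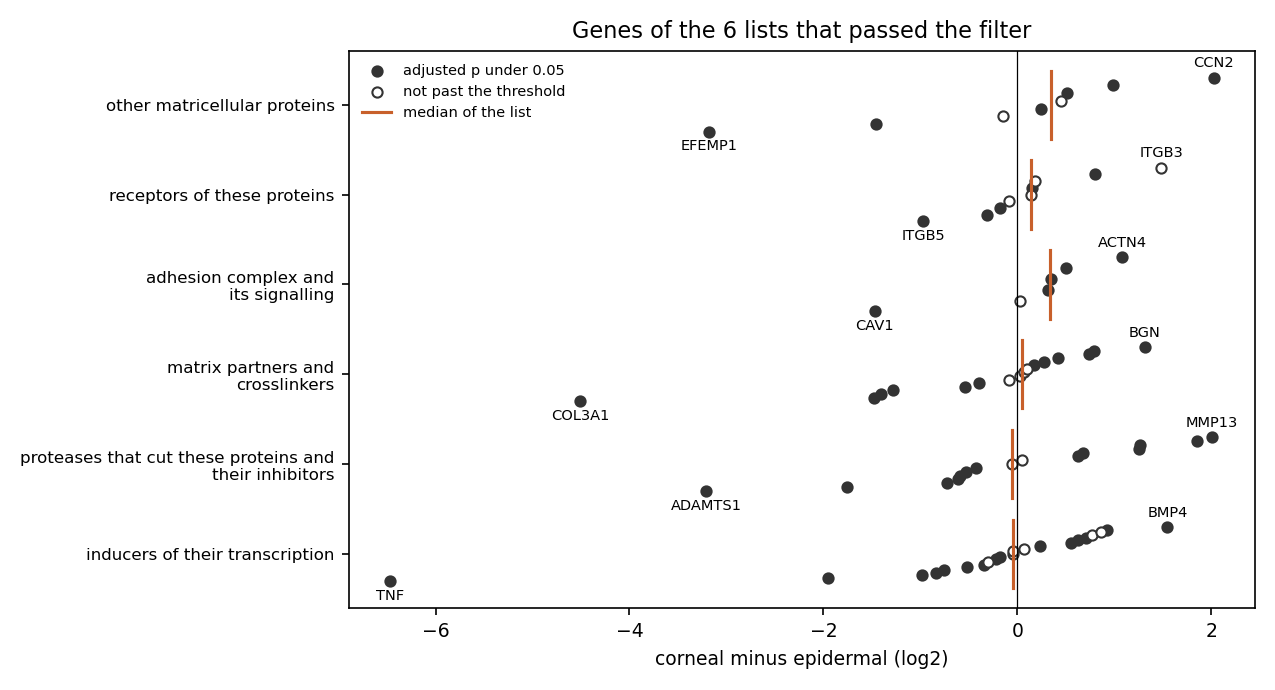
Change (x axis, corneal minus epidermal, log2) of each gene that passed the filter in the 6 lists; filled points passed an adjusted p under 0.05, and the vertical bar is the list's median. Genes of every list lie on both sides of 0, and the list medians lie between −0.05 and 0.35.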

How the data were processed

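RNA of 3 corneal and 3 epidermal sheep cell samples was labelled with Cy3, 1 sample an array. Per the file headers the authors' deposited intensity values (processed signal) are background-subtracted, spatially detrended Agilent Feature Extraction output (version 10.7.3.1; 10.7 in the submitters' processing notes). The authors' deposited log2 table served as an alternative: each column had a median of 7.23 and correlated with the same array's log2 signal at 0.99896 to 0.99989 over probes, so its scale is log2, its direction is that of the scanner values, and its normalization is not stated in those sources. The 2 groups were compared as labelled. Control spots and spots flagged as outliers (3 to 19 an array, 0 of them member probes) were left out, log2 signals were centred on each array's 75th percentile, spots of a probe were averaged, probes well above background on at least 3 of 6 arrays were kept, and each gene took the values of its brightest kept probe (highest mean). limma (3.58.1, R 4.3.3) was fitted across 11413 genes with Benjamini-Hochberg adjustment at 0.05, and was tested on simulated data. Names came from the files, from RefSeq (ARS-UI_Ramb_v3.0) symbols and accessions, and from descriptions matched by hand; 13569 of 15008 probes stayed unnamed. The normexp setting adds an offset of 50. Spots left out in its second form had local background over 10 times their array's median.

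Named genes were all member probes, the 2 largest called rises and falls of each list among genes well above background in both groups, and the 3 nearest genes of each member. The members, lists and markers were chosen with earlier results of these data known, and a rise or fall of a list is no independent evidence. The number of arrays limits precision. No p-value is given for the members.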

Additional observations from a re-analysis of the deposited data

How the results depend on the processing

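Every member probe kept its direction under all alternatives in which it could be computed (15 or 16 a probe). Some of these could not move a member's change and only repeat its main value. They are the outlier flags kept in, the changes of filter and the replicate block. Only the other scalings, the background treatments, the authors' table and leaving out an array could have altered a direction. The median change of the members, −2.02, was −1.56 with quantile normalization, −1.57 in the authors' deposited table, −2.19 without scaling, −1.22 with normexp on all spots and −0.30 with 7 spots of extreme background left out of it. It was −0.28 over the 5 probes well above background on all 6 arrays, and −1.28 over the 6 that passed the filter, a setting chosen after seeing the data. Leaving out each array in turn gave −2.24 to −1.87. Genes called numbered 6769, 399 with normexp on all spots and 6869 with those spots left out, and 5945 to 6468 with an array left out. List genes called numbered 56, 16 with normexp on all spots, and 55 to 58 with an array left out. The labels do not say that replicate numbers pair the samples, and deviations of same-numbered arrays from their group means correlated at 0.02, −0.02 and 0.04 over 11398 genes. With the number as a replicate block, 6032 genes and 55 list genes were called. The members' median of −2.02 cannot change in that setting, since each number occurs once in each group. Of the 36 other genes named, over 610 values, 4 changed direction: ITGB1 (−0.023) without scaling, and HSPG2 (−0.26), MMP13 (−0.47) and TGFBR1 (−0.0084) with normexp on all spots. A further 17 values no longer passed the threshold, all with normexp on all spots except that of ITGA5 averaged over its probes, and 0 of them with an array left out. The cause was not tested. Corneal POSTN and both groups of its dimmer probe lie at or near background, which limits the size of their changes to bounds.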

Other observations

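Some genes outside the rule for named genes, chosen after their values were seen, belong to the same matrix pathway. PLAT, the tissue-type plasminogen activator, was higher in corneal cells (a change of 0.63 ± 0.03, SE; limma, adjusted p = 2.63e-05), while PLAU, the urokinase-type activator, and its receptor PLAUR were lower there (−0.59 ± 0.04 and −0.53 ± 0.04; adjusted p = 5.85e-05 and 0.000142). TGFB1, a ligand that induces periostin and fibronectin in many cells, changed by −0.83 ± 0.04 (adjusted p = 1.86e-05), and LTBP1, which stores latent TGF-β on fibronectin fibrils, by −1.28 ± 0.04 (adjusted p = 6.27e-06). Their relatives TGFB2 and LTBP3 were higher in corneal cells (0.63 ± 0.12 and 0.28 ± 0.05; limma, adjusted p = 0.0051 and 0.00331), and TGFB3 was not called (−0.30 ± 0.17; adjusted p = 0.185). TGM2, a transglutaminase that crosslinks fibronectin, changed by −1.41 ± 0.09 (adjusted p = 6.86e-05). TIMP3, a matrix-bound inhibitor of metalloproteinases, rose by 1.26 ± 0.03 (adjusted p = 1.98e-06) on its brightest probe, while its 3 probes ranged from 0.01 to 1.26.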
